A study of Mus musculus with 6 samples.

Results

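Mitochondrial carriers of the SLC25 family and the uncoupling proteins Ucp1, Ucp2 and Ucp3 were examined in gastrocnemius muscle of mice. The members were all genes of the count table whose symbol starts with Slc25a, or is Ucp1, Ucp2 or Ucp3, with a mean count of at least 5 over the 6 libraries. That left 42 of 17034 genes with values. A further 6 genes of the family had values under that mean, and 2 had none. The member just inside the limit was Slc25a2, with a mean count of 7.67, and the gene just outside it was Slc25a18, with 4.67. Polyadenylated RNA came from 8-week-old male mice, 3 libraries per genotype. Both genotypes were Thra fl/fl, that is, both carried floxed copies of the gene of thyroid hormone receptor alpha. Mice labelled TRa_mKO also carried a Myf5-Cre transgene, which places Cre recombinase under Myf5, a gene of embryonic muscle precursors, whereas their WT littermates had no Cre. A consequence of Cre itself and one of the deletion cannot be told apart in this design. The samples are bulk tissue, so fewer cells of a type and less RNA per cell cannot be told apart either.

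SLC25 carriers are small proteins of the inner mitochondrial membrane that exchange one solute for another between the cytosol and the matrix. They let ADP, phosphate, acylcarnitines, carboxylates, amino acids, nucleotides and cofactors reach the matrix, and so set which fuels a muscle mitochondrion can use. Uncoupling proteins belong to the same family: Ucp1 lets protons leak in brown fat, while Ucp3 is the form typical of skeletal muscle and is known to follow fatty acid supply. Each of the 6 libraries held 12390527 to 14488500 counts. Levels are CPM, that is, read counts scaled to library size and by TMM factors, and differences are log2 fold changes of TRa_mKO over WT with their standard errors (SE). Where 3 values of a genotype are listed, they stand in the order of replicates 1, 2 and 3. A gene was called changed when the edgeR quasi-likelihood test gave a Benjamini-Hochberg adjusted p below 0.05 over all 13118 genes tested. Beyond 3 mice per genotype, the labels give each library only an identifier, a number after WT or CRE, and do not say what it stands for. The targeted gene Thra measured 78.8, 92.8 and 96.8 CPM across the WT libraries, beside 129, 118 and 101 CPM across the TRa_mKO libraries (edgeR adjusted p = 0.117). A gene-level count adds all exons, so it checks neither the deletion nor the labels, and each direction given here rests on the labels. Defining muscle transcripts were abundant in all libraries, with 6 markers such as Acta1 and Ckm summing to between 97960 and 137938 CPM.

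Of the 42 carriers and uncoupling proteins, 2 rose in TRa_mKO and 0 fell. Those that rose were Slc25a20, the carnitine-acylcarnitine carrier, and Slc25a42, a carrier of coenzyme A. Over all genes tested, 2.52% were higher and 1.65% lower, so that 4.17% were called in either direction, against 4.76% of the members. The members' share is thus near that of all genes. The count of 2 fell to 0 when replicate 2 of either genotype was left out and to 1 without WT replicate 3, it was 3 when replicate 1 of either was left out, and DESeq2 gave 4. For decreases, 2 members had an unadjusted p under 0.05, and DESeq2 and limma-voom each called 0. The median log2 fold change of the members was -0.010, beside -0.00032 for all genes tested, with 21 members above 0 and 21 below. Without overlap between the genotypes, 7 members were higher (16.7%) and 3 lower (7.14%), beside 13.2% and 10.1% of all genes tested. An unadjusted p under 0.05 was reached by 9 members (21.4%), against 17.9% of all genes. For 27 members the 95% confidence interval lay within a change of 1.5-fold either way, and for 35 within 2-fold.

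**Figure D1:**
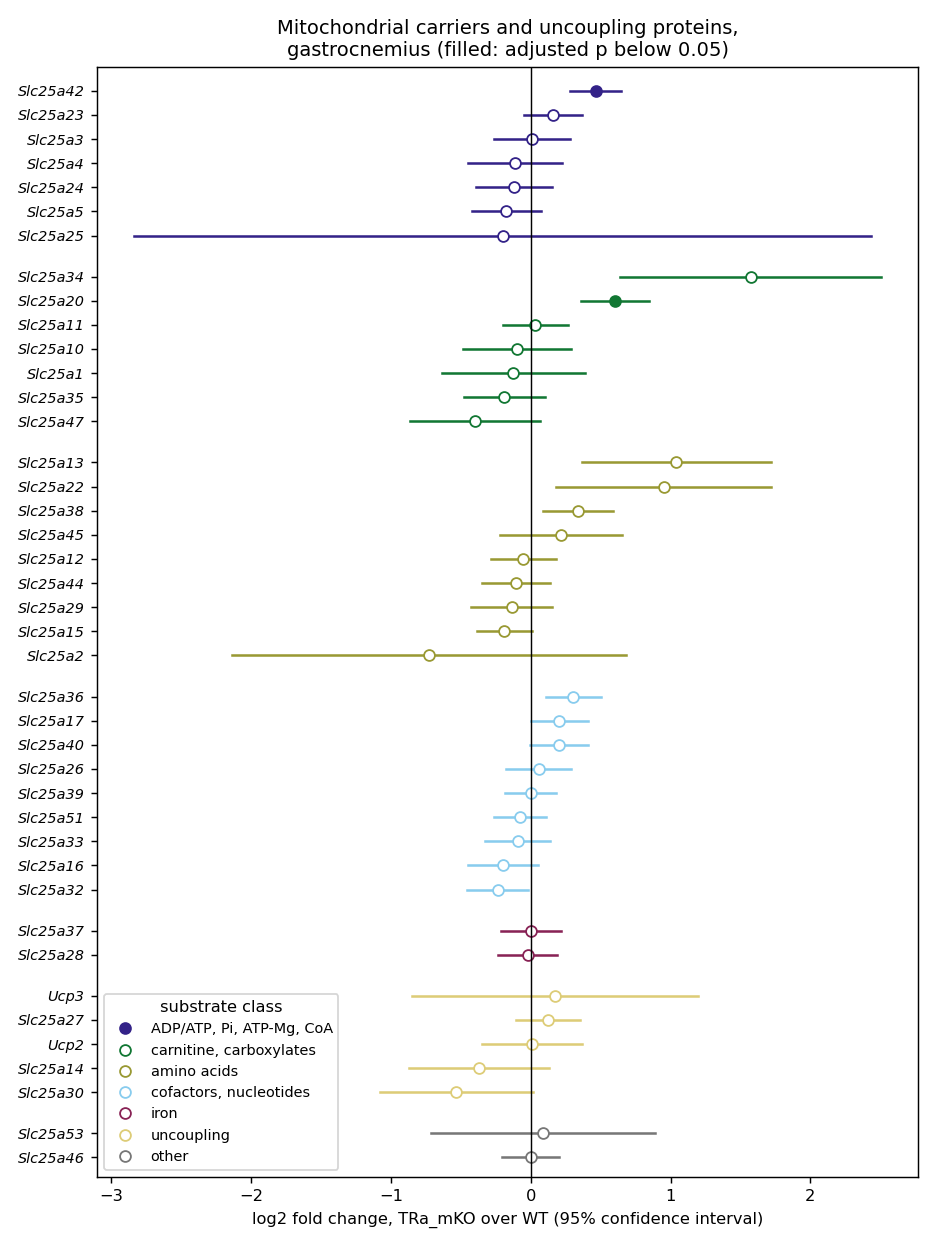
Log2 fold change of TRa_mKO over WT (x axis) for the members shown, grouped by substrate class, with 95% confidence intervals; filled circles passed the edgeR test at an adjusted p below 0.05. Only Slc25a42 and Slc25a20 are filled, and the widest interval belongs to Slc25a25 (-2.84 to 2.44).

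Levels among members were compared per kilobase of the longest coding transcript, which removes most of the effect of gene length on a count. Slc25a4, the muscle form of the ADP/ATP carrier, stood first with 1837 CPM per kilobase in WT and 1702 in TRa_mKO. Slc25a3, the phosphate carrier, followed with 656 and 659 CPM per kilobase, and Slc25a11, the oxoglutarate-malate carrier, with 122 and 125. Together these serve ATP export, phosphate entry and the malate-aspartate shuttle, which moves the electrons of cytosolic NADH into the matrix. Next came Slc25a12, the aspartate-glutamate carrier of muscle and brain (55.6 and 53.6 CPM per kilobase), and Slc25a20 (41.4 and 62.8). Slc25a5, the ADP/ATP carrier of dividing cells, measured 41.7 and 36.9 CPM per kilobase, and Ucp3 32.1 and 36.2. Between Slc25a20, Slc25a5 and Ucp3 the values of the libraries overlapped in WT, while in TRa_mKO the 3 libraries of Slc25a20 all lay above those of Slc25a5 and Ucp3. At the low end, Slc25a53, Slc25a2 and Slc25a13 had between 0.318 and 0.838 CPM per kilobase. Of all counts on members, Slc25a4 took 54.2% and Slc25a3 16.9% (means over 6 libraries, not corrected for length). The summed level of all members lay between 5512 and 7089 CPM in WT and between 5864 and 6572 CPM in TRa_mKO, and the genotypes overlapped.

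**Figure D2:**
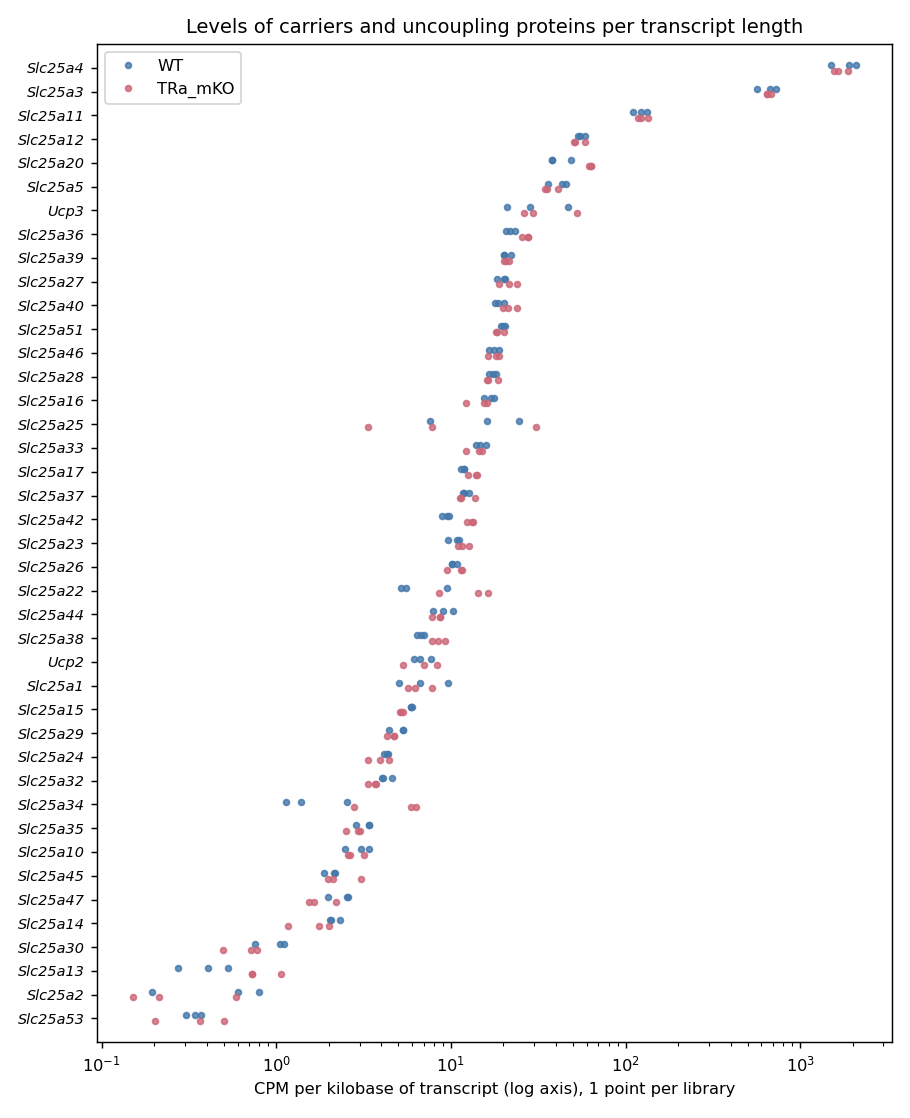
CPM per kilobase of transcript (x axis, log scale) for each member shown, 1 point per library, WT in blue and TRa_mKO in red, ordered by the mean over all libraries. Slc25a4 and Slc25a3 stand far to the right, and the points of Slc25a20 separate by genotype.

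Among carriers of carnitine, dicarboxylates and tricarboxylates, 1 of 7 rose and 0 fell (2 higher and 0 lower at an unadjusted p under 0.05), with a median log2 fold change of -0.099. Counts by class stand beside 2.52% called higher and 1.65% lower of all genes tested, and 17.9% with an unadjusted p under 0.05. Slc25a20 (gene ID 57279) brings acylcarnitines into the matrix for beta-oxidation in exchange for free carnitine. It measured 86.5, 67.2 and 67.9 CPM for WT, set against 109.9, 114 and 112 CPM for TRa_mKO. All 3 TRa_mKO libraries lay above the highest WT library, and WT replicate 1 was the highest of its genotype. The rise was 1.52-fold (log2 fold change 0.60, SE 0.11, edgeR adjusted p = 0.0145, n = 3 per genotype). The call was lost when replicate 2 or 3 of WT, or replicate 2 of TRa_mKO, was left out, at log2 fold changes of 0.54, 0.54 and 0.58 (edgeR adjusted p = 0.0574, 0.0559 and 0.0708).

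Slc25a34, a member whose substrate is not firmly known, had the largest difference of all 42. It measured 6.81, 3.02 and 3.7 CPM across the WT libraries, beside 7.47, 16.9 and 15.8 CPM across the TRa_mKO libraries. No TRa_mKO library fell within the WT range, but replicate 1 lay close to WT replicate 1. The difference of 1.57 on the log2 scale did not pass the test (SE 0.40, edgeR adjusted p = 0.0854), with a 95% confidence interval from 0.64 to 2.51. Over its 16 alternatives the adjusted p ranged from 0.00010 to 0.236, and it passed with DESeq2 (0.00010) and when replicate 1 of WT (0.0473) or of TRa_mKO (0.0122) was left out. Its closest relative Slc25a35 measured 11.7 ± 1.14 CPM in WT and 10.2 ± 0.985 CPM in TRa_mKO (mean ± SD, n = 3), with shared reads. This name stands for fractional counts, which were taken to mark reads that also fit other features. How the fractions arose is not stated in the sources here.

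Slc25a11, the most abundant member of this class, held 228, 209 and 189 CPM for WT, set against 229, 201 and 210.3 CPM for TRa_mKO, also with shared reads. Its log2 fold change was 0.03 (95% confidence interval -0.20 to 0.27), so that a change beyond 1.5-fold lies outside the interval. The remaining members were Slc25a1, the citrate carrier, Slc25a10, the dicarboxylate carrier, and Slc25a47, a member best known from liver. Their log2 fold changes were -0.12, -0.10 and -0.40, and the libraries of the genotypes overlapped for each. Summed over the class, the level was 354, 308 and 300.2 CPM for WT and 376, 363 and 368 CPM for TRa_mKO, without overlap. Most of this difference was Slc25a20 itself. Its mean went from 73.9 CPM in WT to 112 CPM in TRa_mKO, and that of the class from 321 to 369 CPM. Of the 7 members, 3 had a log2 fold change above 0 and 4 below, so the sum does not describe the class as a whole. Slc25a20 made up 1.04% to 1.23% of the counts on all members in WT and 1.67% to 1.94% in TRa_mKO.

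In the class of ADP/ATP, phosphate, ATP-Mg and coenzyme A carriers, 1 of 7 rose and 0 fell (1 and 0 at an unadjusted p under 0.05), with a median of -0.11. Slc25a42 (gene ID 73095) exchanges coenzyme A, the acyl acceptor of fatty acid and pyruvate oxidation, for adenine nucleotides. Its values were 30.5, 28.3 and 31.2 CPM across the WT libraries, beside 39.5, 42.8 and 42.1 CPM across the TRa_mKO libraries. The libraries of each genotype lay close together and far from those of the other. The rise was 1.38-fold (log2 fold change 0.47, SE 0.08, edgeR adjusted p = 0.0127, n = 3 per genotype). The call, though not the direction, was lost with library size alone in place of TMM (log2 fold change 0.41, edgeR adjusted p = 0.0612). It was also lost when replicate 2 of WT (0.43, edgeR adjusted p = 0.0539) or of TRa_mKO (0.43, edgeR adjusted p = 0.0768) was left out. With WT replicate 1 and TRa_mKO replicate 3 both left out, the log2 fold change was 0.46 (edgeR adjusted p = 0.0865).

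The promoters of both genes that rose are shown with those of Slc25a34, which had the largest difference, and of Ucp3, for which nuclear receptor control is well known. Each line gives 250 bases up to the annotated start of transcription, from RefSeq on GRCm38.p6. Capitals mark the hexamer AGGTCA, the core of nuclear receptor sites, or its reverse complement. The window of Slc25a20 is chr9:108661886-108662135 on the plus strand, and that of Slc25a42 is chr8:70212282-70212531 on the minus strand. The window of Slc25a34 is chr4:141623835-141624084 on the minus strand, and that of Ucp3 is chr7:100472741-100472990 on the plus strand.
Slc25a20: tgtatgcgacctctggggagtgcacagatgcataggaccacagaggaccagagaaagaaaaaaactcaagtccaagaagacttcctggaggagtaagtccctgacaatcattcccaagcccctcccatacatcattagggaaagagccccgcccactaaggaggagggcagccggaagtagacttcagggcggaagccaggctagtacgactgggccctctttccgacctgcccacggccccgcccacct
Slc25a42: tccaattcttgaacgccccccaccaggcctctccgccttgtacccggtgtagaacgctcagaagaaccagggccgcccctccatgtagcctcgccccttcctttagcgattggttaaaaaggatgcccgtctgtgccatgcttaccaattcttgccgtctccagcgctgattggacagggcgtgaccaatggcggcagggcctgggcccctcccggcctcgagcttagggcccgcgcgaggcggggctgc
Slc25a34: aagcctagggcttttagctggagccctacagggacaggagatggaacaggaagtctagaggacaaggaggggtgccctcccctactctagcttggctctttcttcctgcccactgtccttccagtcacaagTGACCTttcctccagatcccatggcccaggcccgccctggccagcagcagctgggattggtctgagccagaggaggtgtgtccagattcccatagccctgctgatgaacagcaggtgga
Ucp3: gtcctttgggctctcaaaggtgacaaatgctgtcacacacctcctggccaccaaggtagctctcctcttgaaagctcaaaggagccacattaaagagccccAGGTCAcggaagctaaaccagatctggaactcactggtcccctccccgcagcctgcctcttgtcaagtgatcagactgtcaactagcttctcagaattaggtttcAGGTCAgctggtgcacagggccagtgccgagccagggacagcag
Both strands were searched for AGGTCA alone, for DR1, a direct repeat of it spaced by 1 base and typical of PPAR receptors, and for DR4, a direct repeat spaced by 4 bases and typical of thyroid hormone receptors. AGGTCA alone is contained in the other two. Ucp3 held 2 hexamers, starting 149 and 44 bases before the start, and Slc25a34 held 1 on the other strand, 119 bases before it. Slc25a20 and Slc25a42 held none of these letters in this window. Of 41 windows found for 32 members, 5 held a hexamer (12.2%), against 14% of all 32851 windows of this length. DR1 and DR4 were each found in 0 member windows, and in 0.0335% and 0.0152% of all windows. Only exact letters were matched, which 11 and 5 of all windows held, so 0 of 41 member windows decides nothing. Sites with other letters, or outside these 250 bases, would be missed.

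The ADP/ATP carriers themselves did not pass. Slc25a4 measured 4039, 3667 and 2902 CPM for WT, set against 3643, 3023 and 3164 CPM for TRa_mKO (log2 fold change -0.11, 95% confidence interval -0.45 to 0.23). The WT libraries spanned the whole TRa_mKO range. Slc25a5 measured 51.7 ± 6.36 CPM in WT and 45.8 ± 4.23 CPM in TRa_mKO (log2 fold change -0.17, SE 0.11). The log2 ratio of Slc25a4 to Slc25a5 counts was 6.15, 6.09 and 6.02 in WT and 6.37, 6.15 and 5.97 in TRa_mKO, so the balance of the 2 forms overlapped between genotypes. Slc25a3 had a log2 fold change of 0.0072 (95% confidence interval -0.27 to 0.28). Of the ATP-Mg carriers, which load the matrix with adenine nucleotides when calcium rises, Slc25a23 and Slc25a24 had log2 fold changes of 0.16 and -0.12.

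Slc25a25, the third ATP-Mg carrier, varied most between libraries of a genotype and was singled out after its values were seen. It measured 86.9, 57.0 and 26.8 CPM across the WT libraries, beside 11.9, 27.4 and 108 CPM across the TRa_mKO libraries, a 9.13-fold range over all libraries. WT replicate 1 and TRa_mKO replicate 3 were the highest of their genotypes. The SD of its log2 level within a genotype was 1.27, beside 0.59 for Slc25a34 and 0.56 for Ucp3, the next in that order. The log2 fold change of -0.20 had an SE of 0.98, and without those 2 libraries it was -1.09 (edgeR adjusted p = 0.614). Its sign also turned when replicate 1 of WT (0.24), or replicate 1 or 2 of TRa_mKO (0.27 and 0.077), was left out. WT replicate 2 had a fractional count for this gene.

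Ucp3 showed the same pair of high libraries. It measured 115, 69.2 and 51.5 CPM for WT, set against 63.8, 72.3 and 129.9 CPM for TRa_mKO. The genotypes overlapped fully, and the spread within each exceeded the difference between their means (78.7 ± 32.9 and 88.7 ± 36.0 CPM, n = 3). Its log2 fold change was 0.18 (SE 0.41, 95% confidence interval -0.85 to 1.20, edgeR adjusted p = 0.884). Leaving out TRa_mKO replicate 3 gave -0.21, leaving out WT replicate 1 gave 0.55, and leaving out both gave 0.17 (edgeR adjusted p = 0.844, 0.55 and 0.684). Leaving out WT replicate 3 gave -0.057 (edgeR adjusted p = 0.968). At this spread a change of 2-fold higher was within the interval. Haemoglobin transcripts, a sign of blood in the sample, were also highest in these 2 libraries: their sum reached 1742 and 1599 CPM there, and lay between 453 and 907 CPM elsewhere. Summed markers of slow fibres were likewise the highest of each genotype there, at 2467 and 6530 CPM. The part of blood or of slow fibres in the levels of Ucp3 and Slc25a25 was not tested.

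**Figure D3:**
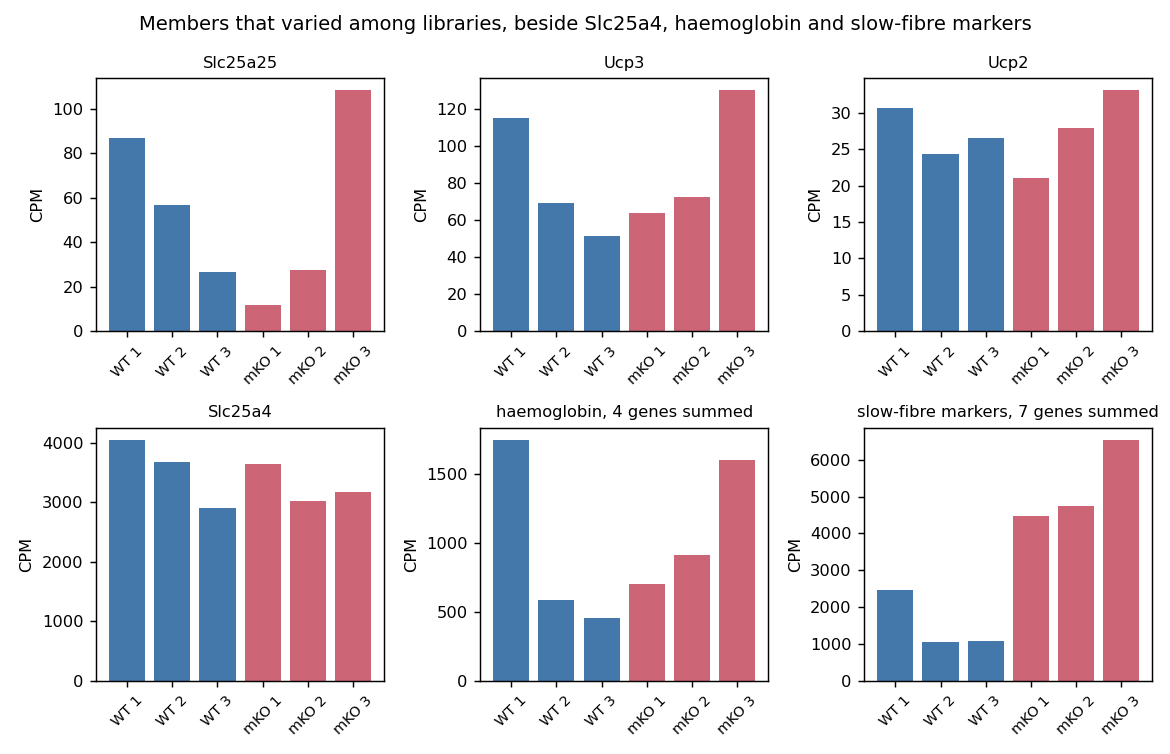
CPM (y axis) in each library for Slc25a25, Ucp3, Ucp2 and Slc25a4, beside the summed CPM of 4 haemoglobin genes and of 7 slow-fibre markers; blue bars are WT and red bars TRa_mKO (mKO on the axis). Within their genotypes, WT replicate 1 and TRa_mKO replicate 3 are highest in Slc25a25, Ucp3, Ucp2, haemoglobin and the slow-fibre markers. The slow-fibre markers also separate the genotypes.

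Uncoupling proteins and their closest relatives gave 0 higher and 0 lower of 5 by edgeR (0 at an unadjusted p under 0.05, and 0 by DESeq2 and limma-voom), with a median of 0.0089. Ucp2, which is widely expressed and prominent in immune cells, measured 30.7, 24.4 and 26.5 CPM across the WT libraries, beside 21.1, 27.9 and 33.1 CPM across the TRa_mKO libraries. TRa_mKO held both the lowest and the highest value (log2 fold change 0.0089, 95% confidence interval -0.35 to 0.37). Markers of macrophages and other leukocytes (6 of 6 tested, 0 called by edgeR, 1 lower at an unadjusted p under 0.05) summed to 57.6 to 69.5 CPM in WT and 40.3 to 63.1 CPM in TRa_mKO. The lowest value of that sum and of Ucp2 fell in the same library, TRa_mKO replicate 1. The highest values did not coincide: within its genotype, the sum was highest in WT replicate 3 and TRa_mKO replicate 2. In TRa_mKO, replicate 3 was close behind replicate 2 in this sum (61.3 and 63.1 CPM). Most of the sum was Lyz2 (means of 38.4 CPM in WT and 29.3 CPM in TRa_mKO), which was highest in replicate 3 of both genotypes. Ucp2 was highest in WT replicate 1 and TRa_mKO replicate 3, the libraries that were also high in Ucp3 and haemoglobin. The part of leukocytes or of blood in the level of Ucp2 was not tested. The log2 ratio of Ucp2 to Ucp3 counts lay between -1.97 and -0.96 in the 6 libraries, so that Ucp3 had more counts in each.

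Slc25a27, also known as UCP4 and best known from brain, measured 57.1 ± 3.35 CPM in WT and 62.1 ± 7.59 CPM in TRa_mKO (log2 fold change 0.12, SE 0.10). Slc25a14 and Slc25a30, 2 further relatives of low level, had log2 fold changes of -0.37 and -0.53 (SE 0.23 and 0.25, edgeR adjusted p = 0.433 and 0.293). All 3 TRa_mKO libraries of Slc25a14 lay below WT, whereas those of Slc25a30 overlapped with WT.

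Ucp1 was under the limit for members: 1 read was counted in WT replicate 1 and 19 in TRa_mKO replicate 2, with 0 in the remaining libraries. A single library thus held nearly all its counts. Of the other brown adipocyte markers, Elovl3 was also highest in TRa_mKO replicate 2, at 0.161 CPM from a count of 2.35. Elovl3 was at 0 in WT replicates 1 and 2 and TRa_mKO replicates 1 and 3. Cidea measured 1.61 CPM in TRa_mKO replicate 2, close to the 1.61 and 1.45 CPM of the other TRa_mKO libraries. Dio2 measured 5.0 CPM there, the lowest of the TRa_mKO libraries. The 6 general fat cell markers summed to 537 CPM in that library, within the 474 to 809 CPM of the others, and most of that sum was Fabp4 (518 CPM). Adipoq (9.6 CPM), Plin1 (2.02 CPM) and Cidec (3.55 CPM) were at their highest there, while Fabp4, Lep and Retn were not. Retn (3.31 CPM) was the highest of the TRa_mKO libraries there, but below WT replicate 3 (3.63 CPM). The part of fat cells in the Ucp1 counts was not tested.

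Amino acid carriers gave 0 higher and 0 lower of 9 by edgeR (3 and 0 at an unadjusted p under 0.05), with a median of -0.052. DESeq2 called 1 of them higher and limma-voom 0. Slc25a12, the most abundant, measured 346, 340.5 and 373 CPM for WT, set against 374, 324 and 323 CPM for TRa_mKO (log2 fold change -0.05, 95% confidence interval -0.28 to 0.18). Its paralog Slc25a13 (citrin, the liver form of the aspartate-glutamate carrier) measured 1.27, 0.852 and 1.65 CPM across the WT libraries, beside 2.27, 2.26 and 3.32 CPM across the TRa_mKO libraries. The genotypes did not overlap, at counts of 11 to 25 in WT and 28 to 48 in TRa_mKO. The difference of 1.04 on the log2 scale missed the threshold (SE 0.30, edgeR adjusted p = 0.0941), with a 95% confidence interval from 0.37 to 1.72. The log2 ratio of Slc25a12 to Slc25a13 counts was 8.05, 8.58 and 7.79 in WT and 7.34, 7.14 and 6.59 in TRa_mKO, so Slc25a12 dominated in each library and by less in TRa_mKO.

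Slc25a22, a glutamate carrier, measured 26.8, 14.6 and 15.6 CPM for WT, set against 24.2, 45.8 and 40.3 CPM for TRa_mKO. TRa_mKO replicate 1 fell below WT replicate 1, so the genotypes overlapped. The log2 fold change was 0.95 (SE 0.32, edgeR adjusted p = 0.188), and DESeq2 called it (adjusted p = 0.00465). The other glutamate carrier, Slc25a18, had 0 to 11 counts per library. Slc25a38, which imports glycine for haem synthesis, measured 12.5, 11.5 and 12.0 CPM across the WT libraries, beside 13.9, 16.5 and 15.1 CPM across the TRa_mKO libraries, with no overlap (log2 fold change 0.34, SE 0.11, edgeR adjusted p = 0.139). Slc25a15, the ornithine carrier, lay lower in all TRa_mKO libraries by a small margin (20.3 ± 0.13 CPM in WT and 17.8 ± 0.316 CPM in TRa_mKO, edgeR adjusted p = 0.297). Slc25a44, a carrier of branched-chain amino acids, Slc25a29, a carrier of basic amino acids, and Slc25a45 had log2 fold changes of -0.11, -0.14 and 0.21. Slc25a2, an ornithine carrier with 3 to 14 counts per library, gave -0.73 with an SE of 0.63.

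**Figure D4:**
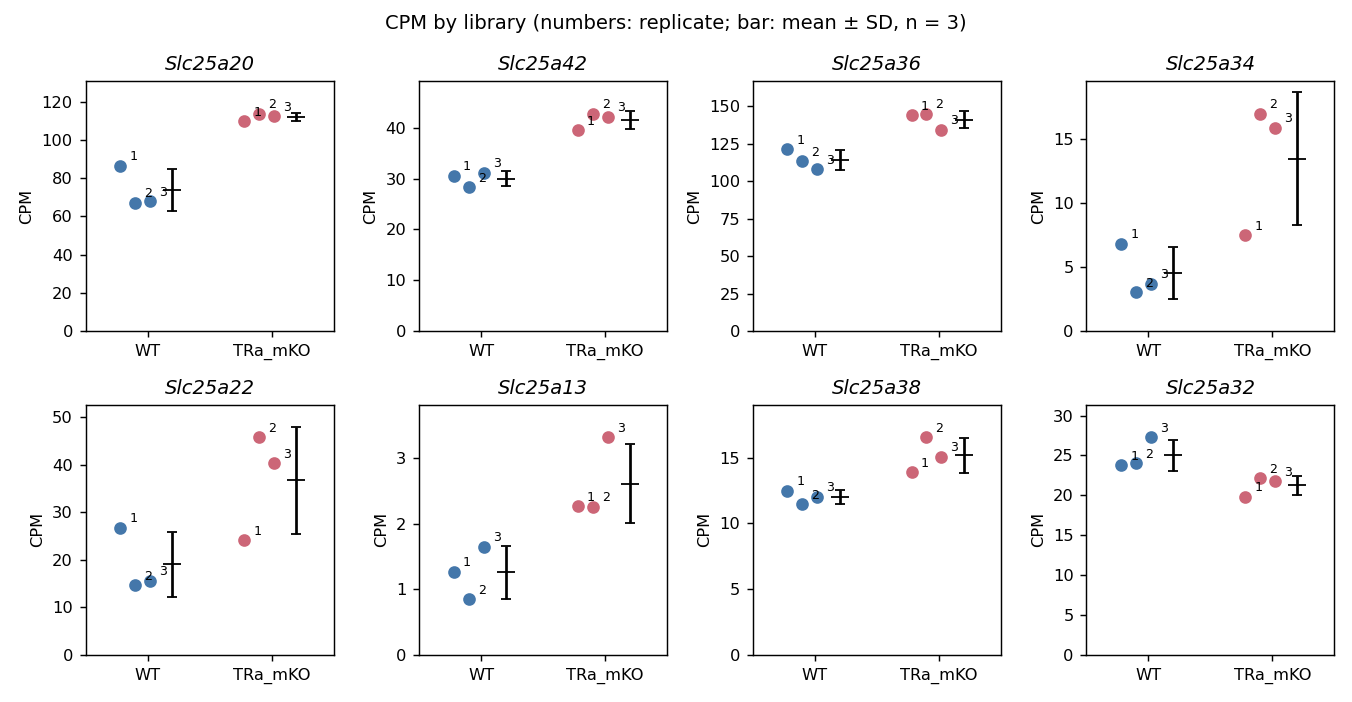
CPM (y axis, from 0) in each library for members with an unadjusted p under 0.05, WT in blue and TRa_mKO in red; numbers give the replicate, and the black bar is the mean ± SD of 3 libraries. Slc25a20 and Slc25a42 show separate groups, with WT replicate 1 above the other WT libraries in Slc25a20. In Slc25a34 and Slc25a22, TRa_mKO replicate 1 lies near WT replicate 1.

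Carriers of cofactors, pyrimidine nucleotides and glutathione gave 0 higher and 0 lower of 10 by edgeR (1 higher and 2 lower at an unadjusted p under 0.05, and 0 by DESeq2 and limma-voom), with a median of -0.038. Slc25a36, which carries pyrimidine nucleotides for mitochondrial DNA and RNA synthesis, was the most abundant per kilobase. It measured 121, 113 and 108 CPM for WT, set against 144, 145 and 134 CPM for TRa_mKO, with no overlap, and did not pass (log2 fold change 0.30, SE 0.09, edgeR adjusted p = 0.0932). Slc25a33, the other pyrimidine carrier, had a log2 fold change of -0.09. The log2 ratio of Slc25a33 to Slc25a36 counts was -2.13, -1.91 and -2.03 in WT and -2.64, -2.40 and -2.24 in TRa_mKO, without overlap.

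Slc25a32, linked to import of folate and FAD, measured 23.8, 24.0 and 27.3 CPM for WT, set against 19.8, 22.1 and 21.8 CPM for TRa_mKO. It was lower in all 3 TRa_mKO libraries (log2 fold change -0.24, SE 0.10, edgeR adjusted p = 0.231).

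Of the 2 glutathione carriers, Slc25a39 held 35.0 CPM in both genotypes (SD 1.91 and 1.18) and Slc25a40 52.4 ± 3.07 and 60.3 ± 5.58 CPM, the latter with shared reads. The log2 ratio of Slc25a39 to Slc25a40 counts ran from -0.62 to -0.54 in WT and from -0.93 to -0.70 in TRa_mKO, without overlap. Slc25a51, the NAD carrier, and Slc25a26, the carrier of S-adenosylmethionine, had log2 fold changes of -0.08 and 0.06, with intervals within 1.5-fold. Slc25a16, linked to coenzyme A, had a log2 fold change of -0.20 (SE 0.11). Slc25a17, a peroxisomal carrier, was higher in all TRa_mKO libraries (20.2 ± 0.47 and 23.2 ± 1.5 CPM) and did not pass (edgeR adjusted p = 0.282).

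Iron carriers, the mitoferrins, supply the matrix with iron for haem and iron-sulphur clusters, and edgeR called 0 of 2 (0 at an unadjusted p under 0.05, and 0 by DESeq2 and limma-voom). Slc25a28, the mitoferrin of most tissues, measured 26.6, 27.7 and 25.4 CPM across the WT libraries, beside 25.1, 28.7 and 24.6 CPM across the TRa_mKO libraries. Slc25a37, the mitoferrin of red cell precursors, measured 53.1, 49.6 and 48.9 CPM for WT, set against 57.4, 46.9 and 47.4 CPM for TRa_mKO, with shared reads. Their intervals were -0.23 to 0.19 and -0.22 to 0.22. The erythroid markers summed to between 458 and 1763 CPM in the libraries, and were highest in WT replicate 1 and TRa_mKO replicate 3. Slc25a37 was highest in replicate 1 of both genotypes, and the part of blood in its level was not tested. Slc25a46, a family member of the outer membrane, measured 72.5, 77.5 and 82.9 CPM across the WT libraries, beside 82.2, 79.3 and 71.5 CPM across the TRa_mKO libraries (95% confidence interval -0.20 to 0.21). Slc25a53, which has no assigned substrate, had 8 to 23 counts per library and an interval of -0.72 to 0.89.

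The proteins that work beside these carriers were read from lists. Over all genes tested, 2.52% were called higher and 1.65% lower, and 17.9% had an unadjusted p under 0.05 in either direction. Of 10 genes of the carnitine shuttle and fatty acid supply around Slc25a20, 2 rose and 0 fell (6 and 0 at an unadjusted p under 0.05), with a median of 0.32. Those called were the carnitine palmitoyltransferases on both sides of it. Cpt1b, which makes acylcarnitine at the outer membrane, measured 357, 318 and 288 CPM for WT, set against 512, 561 and 538 CPM for TRa_mKO (1.67-fold, edgeR adjusted p = 0.00581). Cpt2, which frees the acyl group again in the matrix, measured 68.6, 59.8 and 57.0 CPM across the WT libraries, beside 85.4, 83.7 and 84.0 CPM across the TRa_mKO libraries (1.37-fold, edgeR adjusted p = 0.0241). Cpt1b, Slc25a20 and Cpt2, which act one after the other in fatty acid import, were each called higher. The other outer-membrane forms did not pass: Cpt1a, the liver form, had a log2 fold change of 0.38 and Cpt1c, the brain form, one of -0.0056 (edgeR adjusted p = 0.37 and 0.992), and both overlapped between genotypes.

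Among 12 lipid-sensing and thyroid hormone receptors and their coactivators, 2 rose and 1 fell (5 and 2 at an unadjusted p under 0.05), with a median of -0.07. Ppara, a receptor known to induce carnitine shuttle genes, measured 11.1, 11.0 and 10.3 CPM for WT, set against 19.2, 24.0 and 23.0 CPM for TRa_mKO (2.04-fold, edgeR adjusted p = 0.0013). The other PPAR receptors, Ppard and Pparg, had log2 fold changes of -0.37 and -0.12 and did not pass (edgeR adjusted p = 0.151 and 0.755). All TRa_mKO libraries of Ppard lay below WT, whereas Pparg overlapped. Esrrb rose 1.73-fold (edgeR adjusted p = 0.0189), and Thrb was the member that fell (1.91-fold higher in WT, edgeR adjusted p = 0.00125, shared reads). Of 17 other mitochondrial transporters, only Sfxn2, a sideroflexin, was called (1.62-fold higher, edgeR adjusted p = 0.0324), and the median was -0.0010. At an unadjusted p under 0.05, 2 of these transporters were higher and 3 lower. The pyruvate carrier subunit Mpc2 measured 335, 343 and 263 CPM across the WT libraries, beside 259.7, 238 and 249 CPM across the TRa_mKO libraries and did not pass (edgeR adjusted p = 0.169). The other subunit, Mpc1, measured 453, 486 and 355 CPM for WT, set against 339, 339 and 358 CPM for TRa_mKO. Its genotypes overlapped, and it did not pass (edgeR adjusted p = 0.212).

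By edgeR, 0 of 13 shuttle enzymes such as Mdh2 and Got2 (0 higher and 2 lower at an unadjusted p under 0.05) and 0 of 13 genes of carrier import (0 higher and 1 lower) were called, with medians of -0.06 and -0.03. Slow-fibre markers differed between the genotypes: 3 of 7 rose and 7 of 7 were higher without overlap, beside 2.52% and 13.2% of all genes tested. These markers summed to 1064 to 2467 CPM in WT and 4484 to 6530 CPM in TRa_mKO. Within WT, replicate 1 was highest in this sum and in Slc25a20, Slc25a22 and Slc25a34, whereas Slc25a42 was highest in replicate 3. Within TRa_mKO, replicate 3 was highest in the sum, and Slc25a20, Slc25a22, Slc25a34 and Slc25a42 were each highest in replicate 2. The lowest libraries coincided: WT replicate 2 and TRa_mKO replicate 1 were the lowest of their genotypes in the sum and in each of these carriers. In the sum, WT replicate 2 (1064 CPM) lay close to WT replicate 3 (1076 CPM). The part of a shift in fibre type in the levels of the carriers was not tested.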

How the data were processed

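Polyadenylated RNA of 6 muscles was sequenced, and the deposited table gives the authors' estimated counts for each gene, unscaled. FastQC 0.11.9, MultiQC 1.12, Trimmomatic 0.39 and featureCounts are named in the submitters' processing notes, as are mm10, GRCm39 and GRCm38.p6, without their roles. Which aligner, annotation and strand setting were used is not given in the sources here. In each library, 9.65% to 10.0% of values had a fractional part. Counts were rounded, and 5 of 42 members had a fractional count. Genes were kept by filterByExpr (minimum count 10), scaled by TMM and tested two-sided with edgeR 4.0.16 (quasi-likelihood, robust, genotype as single factor) in R 4.3.3, with Benjamini-Hochberg adjustment. All 42 members passed the filter; 1 of them counts in the totals and is otherwise not reported here. The step was tested on simulated data, 5 runs with 200 changed genes each. It recovered 50% of changes of 1.5-fold and 84.8% of those of 2-fold, and 8.14% of its calls were false.

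Alternatives used DESeq2 1.42.0, limma-voom (limma 3.58.1), other scalings, filters and thresholds, the replicate number as a block, and fewer libraries. Transcript lengths were those of the longest coding transcript in GENCODE M21. Members, lists and alternatives were chosen with earlier results of these data known. Full values are given for members with an unadjusted p under 0.05, Slc25a20, Ucp1, Ucp2, Ucp3 and the most abundant member per kilobase of each class, and related genes are named where called; Slc25a25, Mpc2 and some further values were added after they were seen. Every pair of libraries differed by more than sampling noise (chi-square per degree of freedom at least 7.42 within a genotype).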

Additional observations from a re-analysis of the deposited data

How the results depend on the processing

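The number of members called higher by edgeR was 2, and it stayed at 2 with DESeq2 size factors, no filter on low counts, a filter of 1 CPM, limma-voom, and without the 10 most abundant genes or the genes with shared reads. It was 1 with library size only (Slc25a20), 4 with DESeq2 (Slc25a22 and Slc25a34 besides), 1 with WT replicate 1 and TRa_mKO replicate 3, rich in haemoglobin, both left out (Slc25a20), 5 at an adjusted p below 0.1 and 0 below 0.01. With 1 library left out it ranged from 0 (without WT replicate 2 or TRa_mKO replicate 2) to 3, and was 1 without WT replicate 3. The number called lower was 0 in each alternative run. With the replicate block, 2 members were higher (Slc25a20 and Slc25a42) and 357 of all genes were called in place of 547. Same-numbered libraries did not deviate together (r = -0.176, 0.00032 and -0.0056), so the block tests no known pairing.

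Log2 fold changes near 0 changed sign without passing. Library size only gave -0.018 for Slc25a11, -0.053 for Slc25a46 and -0.039 for Ucp2. Slc25a46 was also at -0.0014 with DESeq2 size factors, -0.0031 without a filter, -0.0027 with DESeq2, -0.0083 without the 10 most abundant genes and -0.0062 without genes with shared reads. Ucp2 was at -0.0082 with limma-voom, -0.0044 with the replicate block and -0.059 without the haemoglobin-rich libraries, which gave 0.022 for Slc25a28 and 0.021 for Slc25a4. With 1 library left out, the ranges were -0.034 to 0.092 for Slc25a11, -1.54 to 0.27 for Slc25a25, -0.10 to 0.022 for Slc25a28, -0.055 to 0.058 for Slc25a46, -0.15 to 0.17 for Ucp2 and -0.21 to 0.55 for Ucp3. Wide intervals limit Slc25a25, Slc25a2, Ucp3 and Slc25a53.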
